A study of Mus musculus with 167 samples.

Results

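The 7 genes described here, Lum, Dcn, Col4a5, Gpc6, Pdgfra, Ednra and Gsn, are genes of matrix-producing, mesenchymal cells. In liver of 2-month-old mice their mRNA had a downward trend over the CAG repeat length of a knock-in Htt allele, without following its every step. They were picked for this trend from 39179 measured gene IDs. The values that picked them are the slope over repeat length and the difference between Q175 and Q20 livers at 2 months, so those 2 measures are given as a description and without a test. The questions tested were whether the lower levels also held against wild type (WT), and whether they were seen at 6 and 10 months. All 7 genes passed the low-count filter of every comparison.

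Liver polyA RNA of C57BL/6 mice was sequenced. The groups were WT and 6 lines heterozygous for a knock-in Htt allele named by its repeat length (Q20 being the shortest, then Q80, Q92, Q111, Q140 and the longest, Q175), each at 2, 6 and 10 months of age. Htt is the gene whose expanded CAG repeat causes Huntington's disease. Each of the 21 groups had 8 libraries, 4 from females and 4 from males, apart from the Q80 line, whose labels give 3 females with 5 males at 2 months and 4 females with 3 males at 10 months. WT mice were housed with Q20 mice and every other line with its own kind, so housing and genotype cannot be told apart for the lines other than Q20. The repeat length used in the slopes is the number in the line's name, not a length measured in each animal.

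Extracellular matrix in the liver is made mainly by mesenchymal cells: hepatic stellate cells, which lie between hepatocytes and the sinusoidal endothelium and store vitamin A, and fibroblasts around the portal tracts. Small leucine-rich proteoglycans bind collagen fibrils and set their spacing, type IV collagens build basement membranes, and cell-surface receptors for platelet-derived growth factor and endothelin control the growth and contraction of these cells. Most of the liver's RNA comes from hepatocytes, so in these whole-liver libraries fewer mesenchymal cells and less of an mRNA per cell cannot be told apart.

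Lum (lumican) and Dcn (decorin) encode small leucine-rich proteoglycans and are neighbours on mouse chromosome 10, with 47.0 kb between the end of Dcn and the start of Lum in GENCODE M21 (GRCm38). Lum spans chr10:97565128-97572703 and Dcn chr10:97479609-97518143, both on the plus strand. Col4a5, on chrX:141475385-141689234, encodes the alpha 5 chain of type IV collagen. Gpc6, on chr14:116925315-117976544, encodes a glypican, a heparan sulphate proteoglycan held on the cell surface by a lipid anchor. Pdgfra, on chr5:75152292-75198215, encodes the alpha receptor for platelet-derived growth factor. Ednra, on chr8:77663031-77724464 of the minus strand, encodes the endothelin A receptor. Gsn, on chr2:35256380-35307892, encodes gelsolin, a protein that severs and caps actin filaments and also has a secreted form.

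Since the 7 genes varied together between animals, as described at the end, the sequences upstream of their start sites are shown. RefSeq sequences were matched by symbol for 4 of the 7 genes, with 3 start sites for Gsn, of which the most upstream is printed; Lum, Dcn and Gpc6 are named only. Each line gives the 250 bases before the RefSeq start site, 5′ to 3′ on the gene's strand, in build GRCm38.p6, and capitals mark GC boxes on either strand.
Pdgfra, chr5:75152001-75152250, plus strand: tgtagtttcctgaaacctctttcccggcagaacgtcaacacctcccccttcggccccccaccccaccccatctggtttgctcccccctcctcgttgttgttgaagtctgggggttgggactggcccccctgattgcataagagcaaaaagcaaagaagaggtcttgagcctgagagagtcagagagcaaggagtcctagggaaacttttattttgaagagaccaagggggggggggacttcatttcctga
Ednra, chr8:77724453-77724702, minus strand: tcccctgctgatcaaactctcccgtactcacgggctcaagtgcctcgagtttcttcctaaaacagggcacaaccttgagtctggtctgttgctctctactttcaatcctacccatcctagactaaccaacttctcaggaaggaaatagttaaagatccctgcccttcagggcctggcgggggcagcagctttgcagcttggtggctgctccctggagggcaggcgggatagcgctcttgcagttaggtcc
Col4a5, chrX:141475169-141475418, plus strand: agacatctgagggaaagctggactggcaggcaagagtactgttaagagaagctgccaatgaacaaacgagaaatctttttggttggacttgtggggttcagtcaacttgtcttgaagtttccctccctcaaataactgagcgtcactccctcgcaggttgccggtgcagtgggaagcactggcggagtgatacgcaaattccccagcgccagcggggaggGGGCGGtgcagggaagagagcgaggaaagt
Gsn, chr2:35256109-35256358, plus strand: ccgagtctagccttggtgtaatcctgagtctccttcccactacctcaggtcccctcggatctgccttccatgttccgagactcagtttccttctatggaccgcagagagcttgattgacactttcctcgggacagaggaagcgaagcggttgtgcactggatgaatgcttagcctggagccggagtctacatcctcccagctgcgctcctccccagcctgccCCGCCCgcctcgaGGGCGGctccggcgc
The motifs below were searched on both strands, and the matches did not overlap each other. The GC box (GGGCGG), which occurred in 32.7% of 32851 promoter windows of the same length, was found once before Col4a5, with its first base 30 bases before the start site, and at 28 and 15 bases before the start site of Gsn. No match to it was found in the windows of Pdgfra and Ednra. The TATA box (TATAAA, in 12.4% of windows), the AP-1 site (TGANTCA, in 6.75%) and the TEAD site (GGAATG, in 12.6%) were not among the letters of any of the 4 windows.

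The total expected count per library ran from 32025244 to 57151736. Htt, the gene that carries the alleles, averaged 21.6 ± 3.19 CPM (counts scaled to equal library size) in Q175 livers and 28.3 ± 3.25 CPM in WT livers at 2 months (SD, n = 8 each), and a gene-level count does not read the repeat. At 2 months 1 library labelled as a Q80 male (M5) had Y-linked genes at 0, which goes against its label, and its library name has the stem of the Q80 females of that age. Its level of Xist, a transcript of female cells, was 0.515 CPM, and which sex the animal had was not settled. The library was kept as a male, also in the 2-month comparison of the sexes. Raised transcripts of bile duct, muscle or blood (limits of 10 CPM for Krt19, 1 CPM for Acta1 and 1000 CPM for Hba-a1) were found in 10 libraries, among them 3 of the 8 Q175 libraries of 10 months and 1 WT library of 2 months. In the library names, all libraries of 2 and 10 months and the WT libraries of 6 months share a naming form (a few have no index), while the knock-in libraries of 6 months carry other index numbers, in which Q175 (6 of its 8 libraries, the others having none) shares a set with Q80, Q111 with Q140, and Q20 with Q92. At 6 months the difference between knock-in and WT livers and the difference between library sets therefore cannot be told apart. The same holds between knock-in lines of different index sets, such as Q175 and Q20.

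On the length-corrected scale of the deposited FPKM values, the 7 genes covered a wide range of levels. Dcn averaged 85.3 ± 21.03 FPKM over all libraries (SD), Gsn 9.53 ± 3.72 FPKM and Lum 4.39 ± 1.33 FPKM. Ednra averaged 1.31 ± 0.349 FPKM, Pdgfra 0.888 ± 0.263 FPKM, Col4a5 0.636 ± 0.298 FPKM and Gpc6 0.420 ± 0.169 FPKM. The lowest expected count of any member in any library was 22, for Col4a5, so no value rested on an absent gene. Levels below are in CPM and compare 1 gene between groups.

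At 2 months, the lumican and decorin mRNAs were lowest in the lines with the longest repeats. Lum averaged 10.6 ± 2.04 CPM in WT, 11.7 ± 2.47 in Q20, 9.27 ± 1.31 in Q80, 10.9 ± 1.804 in Q92, 9.88 ± 1.92 in Q111, 8.22 ± 1.79 in Q140 and 7.59 ± 1.98 in Q175 livers (SD, n = 8 each). The Lum level ran from 4.65 through a median of 7.69 to 10.3 CPM in Q175 livers, against 7.33, 11.9 and 14.5 CPM in Q20 livers and 8.41, 10.2 and 15.1 CPM in WT livers. For Lum, 5 of the 8 Q175 livers lay below the lowest WT liver, and the groups overlapped. Dcn averaged 159.5 ± 18.7 CPM in WT, 176 ± 15.4 in Q20, 149 ± 25.3 in Q80, 173 ± 18.7 in Q92, 149.9 ± 22.6 in Q111, 140.0 ± 22.9 in Q140 and 139 ± 24.3 in Q175 livers. Its Q175 livers ran from 97.1 through 149 to 167.2 CPM, against 149.6, 179 and 196 CPM in Q20 livers and 134, 159 and 187 CPM in WT livers. All 8 Q175 livers were below the Q20 median of Dcn, and 3 were below the lowest WT liver.

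The basement membrane collagen chain and the glypican were the members with the largest log2 differences between Q175 and Q20 livers. Col4a5 averaged 4.48 ± 1.148 CPM in WT, 4.61 ± 0.866 in Q20, 4.55 ± 2.24 in Q80, 3.12 ± 0.887 in Q92, 4.18 ± 1.01 in Q111, 4.23 ± 1.37 in Q140 and 2.43 ± 0.754 in Q175 livers. Its level ran from 1.71 through 2.17 to 3.70 CPM in Q175 livers, against 3.12, 4.48 and 5.86 CPM in Q20 livers and 3.12, 4.42 and 6.28 CPM in WT livers. The Col4a5 values did not follow the order of the repeats, since Q92 was below Q111 and Q140. Nor did those of any other member, as each had a higher mean in Q92 than in Q80 livers. Gpc6 averaged 3.10 ± 0.623 CPM in WT, 3.39 ± 0.590 in Q20, 2.82 ± 1.149 in Q80, 3.28 ± 0.708 in Q92, 2.37 ± 0.797 in Q111, 2.61 ± 0.922 in Q140 and 2.01 ± 0.536 in Q175 livers. Its level ran from 1.26 through 1.92 to 2.98 CPM in Q175 livers, against 2.66, 3.29 and 4.30 CPM in Q20 livers and 2.43, 3.03 and 4.19 CPM in WT livers. Of the 8 Q175 livers, 7 had less Gpc6 than the lowest WT liver, and the Q175 female F4 alone lay within the WT range.

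The receptors were lower by a smaller margin. Pdgfra averaged 5.96 ± 0.891 CPM in WT, 6.64 ± 0.874 in Q20, 5.23 ± 1.45 in Q80, 6.17 ± 1.18 in Q92, 5.16 ± 0.822 in Q111, 4.65 ± 1.37 in Q140 and 4.91 ± 1.49 in Q175 livers, so Q140 and not Q175 was lowest. Its level ran from 2.92 through 4.79 to 7.04 CPM in Q175 livers, against 5.07, 6.55 and 8.21 CPM in Q20 livers and 5.04, 5.61 and 7.29 CPM in WT livers. The Q175 values split by sex, with the 4 males (2.92 to 4.43 CPM) below every WT and Q20 liver and the 4 females (5.15 to 7.04 CPM) inside their range. Ednra averaged 4.34 ± 0.482 CPM in WT, 5.03 ± 0.494 in Q20, 4.06 ± 0.845 in Q80, 4.68 ± 0.465 in Q92, 4.02 ± 0.539 in Q111, 3.73 ± 0.571 in Q140 and 3.49 ± 0.698 in Q175 livers. Its level ran from 2.70 through 3.22 to 4.57 CPM in Q175 livers, against 4.13, 5.12 and 5.56 CPM in Q20 livers and 3.31, 4.39 and 4.87 CPM in WT livers. Of the 8 Q175 livers, 6 were below the lowest Q20 liver of Ednra and 5 below the lowest WT liver.

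Gsn, the actin-severing protein gene, averaged 26.1 ± 3.99 CPM in WT, 24.2 ± 3.91 in Q20, 20.4 ± 4.996 in Q80, 24.7 ± 3.97 in Q92, 20.98 ± 3.93 in Q111, 18.9 ± 4.58 in Q140 and 16.4 ± 4.10 in Q175 livers at 2 months. Its level ran from 12.99 through 14.99 to 25.7 CPM in Q175 livers, against 19.6, 24.4 and 30.3 CPM in Q20 livers and 20.7, 25.6 and 34.4 CPM in WT livers. Of the 8 Q175 livers, 7 were below every WT and every Q20 liver of Gsn, and the exception was again the female F4. Within the order of the 7 genotype means at 2 months, neighbours differed by no more than the larger of their SDs for all members, with 1 exception, the gap between Q111 and Q92 for Col4a5.

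**Figure D1:**
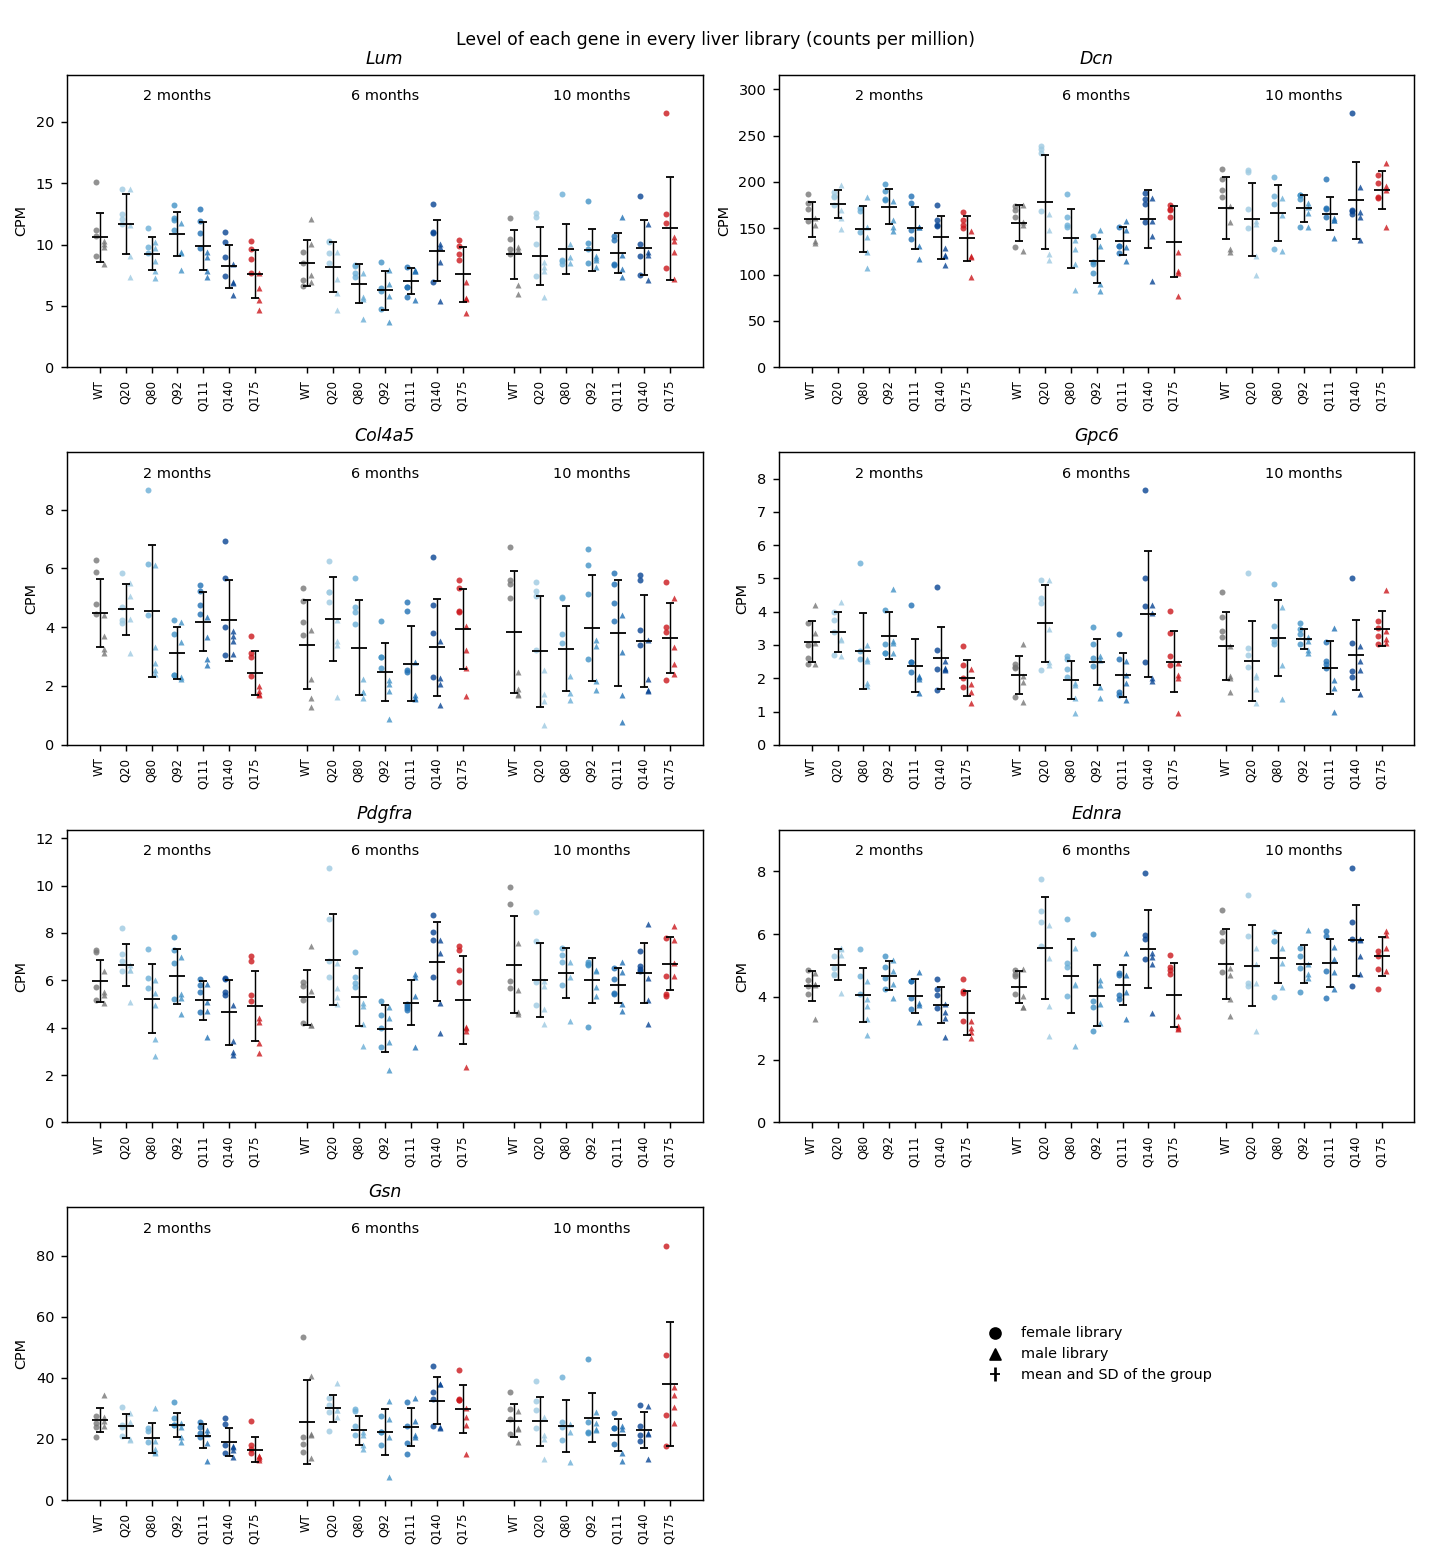
Level of each gene in CPM (y axis, from 0) in every library, by genotype in order of repeat length and by age (x axis), with circles for females, triangles for males, and a bar for the mean and SD of the group. At 2 months the Q175 means are the lowest of the 7 genotypes for all members other than Pdgfra, and at 10 months they are the highest for Lum, Dcn, Gpc6, Pdgfra and Gsn.

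The 2-month values used to pick the genes were, as log2 changes with standard errors, as follows. In Q175 against Q20 livers the difference was -0.64 ± 0.11 for Lum, -0.36 ± 0.08 for Dcn, -0.97 ± 0.18 for Col4a5, -0.76 ± 0.18 for Gpc6, -0.47 ± 0.13 for Pdgfra, -0.54 ± 0.10 for Ednra and -0.58 ± 0.13 for Gsn. The slope over the 6 knock-in lines, per 100 CAG, was -0.42 ± 0.07 for Lum, -0.25 ± 0.05 for Dcn, -0.46 ± 0.13 for Col4a5, -0.47 ± 0.11 for Gpc6, -0.34 ± 0.08 for Pdgfra, -0.35 ± 0.06 for Ednra and -0.37 ± 0.08 for Gsn. Its median over the 7 genes was -0.37, and -0.35 without the Q175 libraries and -0.51 without the Q20 libraries. With log2(FPKM + 1) the median slope was -0.21, on a scale that understates changes of low genes.

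Against WT, the 2-month Q175 livers had lower levels of all 7 genes, and the difference passed the threshold for Lum, Col4a5 and Gsn. The log2 change was -0.50 ± 0.11 for Lum (adjusted p = 0.0239), -0.89 ± 0.18 for Col4a5 (adjusted p = 0.0108) and -0.69 ± 0.13 for Gsn (adjusted p = 0.00645, edgeR's quasi-likelihood test with Benjamini-Hochberg adjustment over 15137 genes). Gpc6 was at -0.64 ± 0.19 (adjusted p = 0.0813), Ednra at -0.32 ± 0.10 (adjusted p = 0.0959), Dcn at -0.21 ± 0.08 (adjusted p = 0.183) and Pdgfra at -0.31 ± 0.13 (adjusted p = 0.245, edgeR). So 3 of 7 members fell past an adjusted p of 0.05, where 0.297% of all genes tested did so. The median of the 7 was -0.50, against -0.00016 over all genes tested. The labels number the libraries. In the library names of 2 months, those of a group and sex share a stem, apart from the Q80 male M5, and WT has the stems of Q20. What a stem stands for was not given, so p-values here measure the spread between these libraries. These Q175 livers are the ones on which the genes were picked, so the comparison is not independent of the choice, but the WT livers took no part in it.

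The count of 3 changed with the sex and the libraries in the fit. In females alone none of the 7 passed in edgeR, and in males alone 1 did, Gsn, with 4 libraries a group in each. Lum also missed the threshold with the 2 groups alone in the fit (adjusted p = 0.0586), and DESeq2 added Gpc6 to the 3 calls (adjusted p = 0.0458). With limma on log2(FPKM + 1) the Col4a5 call was lost (-0.32, adjusted p = 0.0686). The Lum call was lost when the Q175 male M1 (adjusted p = 0.0517) or the WT male M3 (adjusted p = 0.0509, edgeR) was left out. In no single omission did a log2 change of any of the 7 turn positive, and the median stayed between -0.55 and -0.44. Without the libraries with raised bile duct, muscle or blood transcripts, which include the WT female F3 with the highest Lum, the count was again 3, at a median of -0.44.

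None of the 7 genes passed in any other line against WT at 2 months, in edgeR or in DESeq2. Of the 7 genes, 5 had an unadjusted p under 0.05 in Q140, 2 in Q111, and 1 each in Q92, Q80 and Q20. The share of all genes called lower was 0.0132% in Q140, 0% in Q111, 0.00661% in Q92, 0.0132% in Q80 and 0% in Q20. Q140 livers had values below WT for all 7, from -0.08 ± 0.18 for Col4a5 to -0.49 ± 0.13 for Gsn, with a median of -0.26. The medians were -0.11 in Q111, 0.04 in Q92 and -0.13 in Q80 livers. Q20 livers had a median of 0.14 above WT, and Ednra, at 0.22 ± 0.10 (adjusted p = 0.999, edgeR), had the largest value. Q20 lay on the high side of WT for 6 of the 7 genes. Each contrast of Q175 was smaller against WT than against Q20 except for Gsn. The knock-in livers of 2 months, Q20 among them, gave the slope that picked the genes. High Q20 and low Q140 values were therefore favoured by the choice, and these contrasts with WT are not independent of it.

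The lists of related matrix, receptor and signalling genes held no call in Q175 against WT livers at 2 months. Of 9 measured leucine-rich matrix proteoglycans other than Lum and Dcn none passed, with a median log2 change of -0.20, and Ogn (osteoglycin) was at -0.55 ± 0.15 (adjusted p = 0.0658). Of 12 interstitial collagens 11 were negative and none passed, with a median of -0.28 and values of -0.50 ± 0.15 for Col6a2 and -0.44 ± 0.13 for Col6a1. Of 18 other basement membrane genes 15 were negative and none passed (median -0.14), with Col4a6, which is paired head to head with Col4a5 on the X chromosome, at -1.14 ± 0.40 (adjusted p = 0.154, edgeR). None of 8 glypicans and syndecans (median 0.02), of 6 other genes of platelet-derived growth factor ligands and receptors (median -0.10), of 4 of the endothelin system (median -0.07), of 6 of the gelsolin family (median -0.17), of 15 of the TGF-beta pathway (median -0.13) or of 13 of the fibrosis response (median -0.23) passed. Pdgfrb, the beta receptor found on stellate cells, was at -0.31 ± 0.13 (adjusted p = 0.231), close to Pdgfra. Timp2, an inhibitor of matrix-degrading enzymes, was at -0.31 ± 0.10 (adjusted p = 0.105, edgeR).

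Markers of the cells that could carry these mRNAs were measured beside them. Of 20 stellate cell markers 15 were negative in Q175 against WT livers at 2 months and none passed, with a median of -0.21. Their summed level was 294 to 494 CPM in Q175 livers and 371 to 517 CPM in WT livers, and no stellate marker was at 0 in any library. Of 14 measured portal fibroblast markers 10 were negative and 1 passed, Dpt (dermatopontin, a collagen-binding matrix protein), at -1.0 ± 0.20 (adjusted p = 0.0106, edgeR). The summed portal fibroblast level was 38.3 to 99.3 CPM in Q175 and 52.3 to 94.6 CPM in WT livers, and Mfap5 was at 0 in 94 libraries. All 8 smooth muscle markers were negative (median -0.65) and 6 of 7 bile duct markers (median -0.51), with no call in either. Summed smooth muscle markers ran from 13.5 to 19.9 CPM in Q175 livers and from 16.3 to 51.7 CPM in WT livers. The medians of the hepatocyte (0.13), sinusoidal endothelial (0.07) and Kupffer cell markers (0.05) were above 0. The part of cell numbers in the lower matrix genes was not tested.

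**Figure D2:**
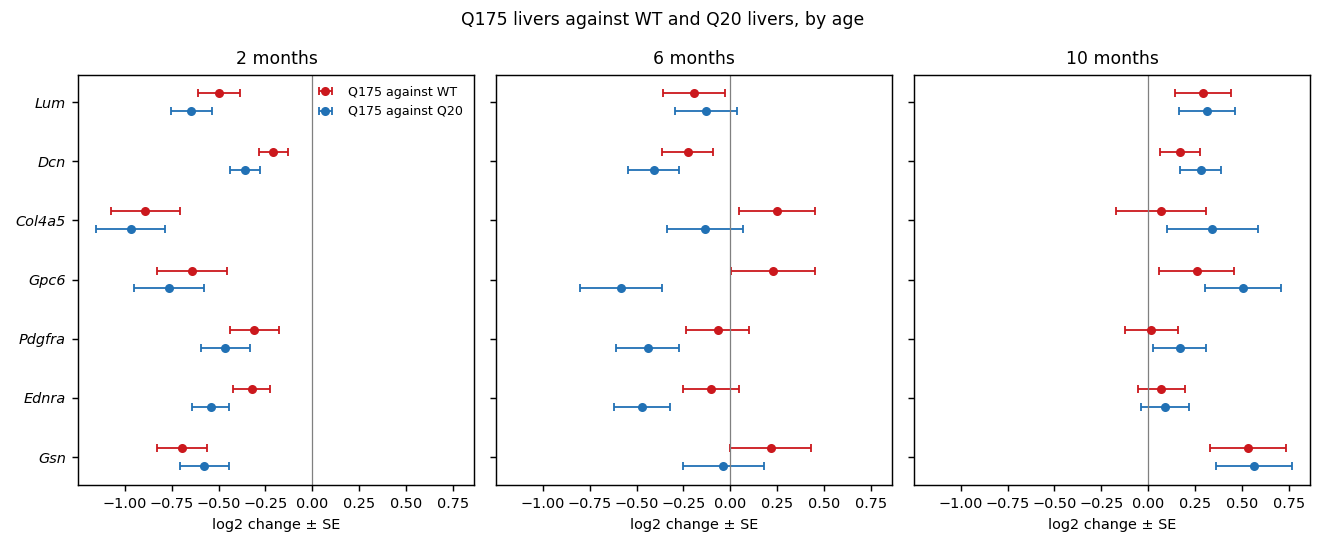
Log2 change (x axis) of each gene in Q175 against WT livers (red) and in Q175 against Q20 livers (blue) at 2, 6 and 10 months, with bars for the standard error. The 2-month points lie left of 0, the 10-month points lie right of 0, and at 6 months the points against WT fall on both sides.

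At 6 months none of the 7 genes passed in Q175 against WT livers, and the log2 changes lay on both sides of 0. In edgeR and in DESeq2 the count was 0, none had an unadjusted p under 0.05, and 4 of 7 log2 changes were negative, where 12.6% of all genes were called lower and 13.3% higher. The values were -0.19 ± 0.17 for Lum, -0.23 ± 0.14 for Dcn, 0.25 ± 0.20 for Col4a5, 0.23 ± 0.22 for Gpc6, -0.07 ± 0.17 for Pdgfra, -0.10 ± 0.15 for Ednra and 0.22 ± 0.22 for Gsn. Their 95% intervals ran down to -0.52 for Lum and to -0.15 for Col4a5. Col4a5 ran from 1.67 through 4.27 to 5.60 CPM in Q175 livers, against 1.27, 3.83 and 5.33 CPM in WT livers. Gsn ran from 15.1 through 31.3 to 42.4 CPM in Q175 livers, against 13.8, 20.96 and 53.4 CPM in WT livers. Lum ran from 4.41 through 7.82 to 10.4 CPM in Q175 livers, against 6.62, 8.005 and 12.1 CPM in WT livers. The groups overlapped for these 3 genes, which were the 3 called at 2 months. Of the 8 Q175 livers, 3 lay below the lowest WT liver of Lum. For each of Dcn, Pdgfra and Ednra 4 of the 8 lay below the lowest WT liver, and these were the 4 males. The number was 1 for Gpc6 and 0 for Col4a5 and Gsn. The median of the 7 was -0.07 in both sexes together, 0.28 in females alone and -0.37 in males alone, with no call in either, and it ran from -0.14 to 0.04 when 1 library was left out. The male M1 had the lowest Q175 value of all 7 genes.

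Against Q20, whose index numbers are of another set, 6-month Q175 livers had lower values of all 7 genes, and Dcn and Ednra passed. Genotype and index set cannot be told apart in this comparison either. Dcn ran from 77.1 through 143 to 175 CPM in Q175 livers, against 116, 166.5 and 239 CPM in Q20 livers, a log2 change of -0.41 ± 0.14 (adjusted p = 0.0415). Ednra, the endothelin receptor gene, ran from 2.99 through 4.06 to 5.34 CPM in Q175 livers, against 2.74, 5.95 and 7.74 CPM in Q20 livers, a log2 change of -0.47 ± 0.15 (adjusted p = 0.0306, edgeR). The groups overlapped for both. The count of 2 lower members stands beside 6.45% of all genes called lower in this comparison. Gpc6 was at -0.58 ± 0.22 (adjusted p = 0.0714), Pdgfra at -0.44 ± 0.17 (adjusted p = 0.0752), and Lum, Col4a5 and Gsn were at -0.13 ± 0.17, -0.14 ± 0.20 and -0.04 ± 0.22.

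These 2 calls lay close to the threshold. Both were lost when any of the Q175 males M1 to M4, of the Q20 females F1, F3 and F4 or of the Q20 males M1 and M2 was left out, 9 of the 16 livers, while the log2 change stayed between -0.41 and -0.33 for Dcn and between -0.46 and -0.40 for Ednra in these omissions. The largest adjusted p among them was 0.113 for Dcn and 0.0835 for Ednra (edgeR). With all 3 of these Q20 females left out, a choice made because they stood apart in earlier results of these data, Dcn was at -0.19 and Ednra at -0.31, with none of the 7 called. In the same comparison 12 of 13 Kupffer cell and macrophage markers, 5 of 6 neutrophil markers, 6 of 20 stellate cell markers and 4 of 12 sinusoidal endothelial markers were lower. The summed Kupffer cell level was 135 to 592 CPM in Q175 livers and 408 to 1305 CPM in Q20 livers. Of the pathway genes, Col4a1 (-0.64 ± 0.16, adjusted p = 0.00894), Col4a2 (-0.58 ± 0.15, adjusted p = 0.0103), Col14a1 (-0.66 ± 0.19, adjusted p = 0.0195) and Tgfb1 (-0.66 ± 0.17, adjusted p = 0.0112, edgeR) fell as well. The part of these markers in the lower Dcn and Ednra was not tested.

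The slope over repeat length at 6 months had no call among the 7 genes, in edgeR and in DESeq2, and none had an unadjusted p under 0.05, where 3.8% of all genes were called lower. The slopes per 100 CAG were 0.06 ± 0.10 for Lum, -0.16 ± 0.09 for Dcn, -0.08 ± 0.13 for Col4a5, -0.12 ± 0.16 for Gpc6, -0.13 ± 0.12 for Pdgfra, -0.17 ± 0.10 for Ednra and 0.09 ± 0.12 for Gsn. Their direction depended on the Q20 line: the median was -0.12 over all 6 lines (-0.15 to -0.04 with 1 Q175 or Q20 library left out) and 0.36 without the Q20 libraries, where all 7 slopes were positive, still with no call. Between lines that share a set of index numbers, Q175 against Q80 gave no call in edgeR or DESeq2 and no unadjusted p under 0.05, at a median of 0.15, where 1.09% of all genes were called lower and 1.25% higher. With the Q20 females F1, F3 and F4 left out the median slope was 0.02.

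Other lines of 6 months also differed from Q20 and WT. Q92 livers had the lowest means of Lum (6.28 ± 1.58 CPM), Dcn (115 ± 23.9 CPM), Pdgfra (3.97 ± 0.973 CPM), Ednra (4.04 ± 0.961 CPM), Col4a5 (2.47 ± 0.975 CPM) and Gsn (22.2 ± 7.48 CPM). Against Q20, with which it shares index numbers, Q92 was lower for Dcn (-0.62 ± 0.14), Pdgfra (-0.80 ± 0.17), Ednra (-0.46 ± 0.15) and Col4a5 (-0.83 ± 0.21), 4 of 7 members, where 10.9% of all genes were called lower. Gpc6 fell in Q80 (-0.94 ± 0.22) and Q111 livers (-0.81 ± 0.22) against Q20, the only call in each. There 5.58% and 0.697% of all genes were called lower, and the index sets of these lines differ from that of Q20. Gpc6 was higher in Q140 than in Q111 livers by 0.89 ± 0.22 (adjusted p = 0.0186, edgeR), 1 of 7 members, where 1.16% of all genes were called higher within that index set. It ran from 1.92 through 4.06 to 7.65 CPM in Q140 livers against 1.34, 1.97 and 3.33 CPM in Q111 livers. None of the 7 passed in Q80 (1 unadjusted p under 0.05) or Q111 livers (0) against WT or in Q140 against Q20 livers (0), in edgeR or DESeq2, where 19%, 26.7% and 5.98% of all genes were called in either direction. Against WT, Gpc6 rose in Q140 (0.89 ± 0.22) and Q20 livers (0.81 ± 0.22) and Ednra rose in Q20 livers (0.37 ± 0.15), while Lum (-0.45 ± 0.17) and Dcn (-0.44 ± 0.14) fell in Q92 livers, with 14.5% of all genes called higher in Q140, 17.9% higher in Q20 and 11.4% lower in Q92. The Ednra call in Q20 was lost in 7 alternatives, among them DESeq2 (adjusted p = 0.0574), its size factors in edgeR (0.0608), the replicate block (0.0542) and no low-count filter (0.0881). The Gpc6 call in Q111 against Q20 was lost in 8, with adjusted p from 0.0577 to 0.768, and the Lum call in Q92 against WT in 6, from 0.0530 to 0.262.

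**Figure D3:**
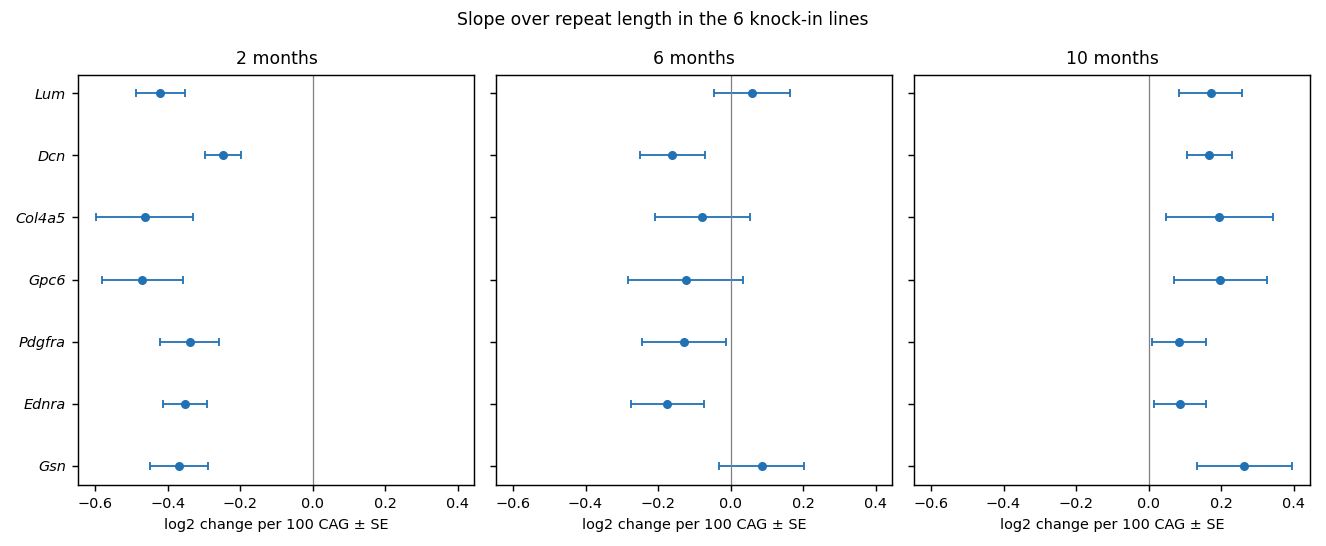
Slope of each gene over the repeat length in the 6 knock-in lines (x axis, log2 change per 100 CAG) at 2, 6 and 10 months, with bars for the standard error. The 2-month slopes, which were used to pick the genes, lie between -0.47 and -0.25, the 6-month slopes between -0.17 and 0.09 and the 10-month slopes between 0.08 and 0.26.

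At 10 months all 7 log2 changes in Q175 against WT livers were above 0, and none passed. The log2 changes were 0.29 ± 0.15 for Lum, 0.17 ± 0.11 for Dcn, 0.07 ± 0.24 for Col4a5, 0.26 ± 0.20 for Gpc6, 0.02 ± 0.14 for Pdgfra, 0.07 ± 0.13 for Ednra and 0.53 ± 0.20 for Gsn (smallest adjusted p = 0.193, edgeR), where 0.484% of all genes were called lower and 0.899% higher. DESeq2 gave no call either, and 1 of the 7, Gsn, had an unadjusted p under 0.05. The lowest end of the 95% intervals was -0.40, for Col4a5. Lum ran from 7.18 through 10.4 to 20.8 CPM in Q175 livers, against 5.98, 9.63 and 12.2 CPM in WT livers. Gsn ran from 17.8 through 32.5 to 83.3 CPM in Q175 livers, against 19.1, 25.01 and 35.5 CPM in WT livers. The highest value of both genes was in the Q175 female F4, 1 of the 3 Q175 libraries with raised muscle or blood transcripts.

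Against Q20 at 10 months the values were positive for all 7 genes, from 0.09 ± 0.13 for Ednra to 0.56 ± 0.20 for Gsn, and none passed (smallest adjusted p = 0.166, edgeR). DESeq2 gave none, 4 had an unadjusted p under 0.05, and 0.331% of all genes were called lower and 0.924% higher. The slope over repeat length was positive for all 7 as well, from 0.08 ± 0.08 per 100 CAG for Pdgfra to 0.26 ± 0.13 for Gsn, with no call in edgeR or DESeq2 and 1 unadjusted p under 0.05, that of Dcn (0.17 ± 0.06), where 0.505% of all genes were called higher. Without the libraries with raised transcripts of other tissues the median change was 0.14 against WT and 0.17 against Q20, and the median slope 0.12. In Q175 livers of 10 months all 4 measured skeletal muscle markers were higher than in WT. Among these Q175 livers, Acta1 was over its limit of 1 CPM only in the females F3 (271 CPM) and F4 (7.82 CPM). The summed smooth muscle markers ran from 14.6 to 62.2 CPM in Q175 livers, against 13.7 to 19.8 CPM in WT livers. The part of these transcripts in the members' values was not tested. In females alone 5 of the 7 changes against WT were negative, and in males alone none was. Against WT and against Q20, no other line had a call or an unadjusted p under 0.05 among the 7 genes at 10 months in edgeR, and DESeq2 gave no call. The share of all genes called in either direction against WT was 0.0127% in Q20, 0.00637% in Q80, 0.739% in Q92, 0.975% in Q111 and 0.00637% in Q140 livers. Against Q20 it was 0.0127% in Q80, 4% in Q92, 1.11% in Q111 and 0.00637% in Q140 livers.

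The slopes of 6 and 10 months could be set against each other directly, since neither was used to pick the genes. The slope was higher at 10 than at 6 months for all 7 genes, with a median difference of 0.26 per 100 CAG, and none passed in edgeR or DESeq2, where 2.47% of all genes were called higher. Dcn had 0.33 ± 0.11 (adjusted p = 0.0886) and Ednra 0.26 ± 0.12 (adjusted p = 0.287, edgeR), the 2 members with an unadjusted p under 0.05. The comparison spans the change of index numbers in the knock-in libraries, which cannot be told apart from age. Between 10 and 2 months, which share the naming form, the difference of the slopes was 0.59 ± 0.13 for Lum, 0.42 ± 0.10 for Dcn, 0.66 ± 0.21 for Col4a5, 0.67 ± 0.20 for Gpc6, 0.42 ± 0.14 for Pdgfra, 0.44 ± 0.12 for Ednra and 0.63 ± 0.17 for Gsn. As the 2-month slope picked the genes, this difference is a description with no test.

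In WT livers none of the 7 genes passed between any pair of ages in edgeR or DESeq2. At 10 against 2 months the median log2 change was 0.00054, with 1 unadjusted p under 0.05, and 0.576% of all genes were called lower and 1.04% higher. At 10 against 6 months the changes were all positive (median 0.14) and at 6 against 2 months all negative (median -0.17), each with 3 unadjusted p-values under 0.05, where 0.169% and 1.54% of all genes were called in either direction. The value farthest from 0 was that of Gpc6 at 6 against 2 months, -0.57 ± 0.19 (adjusted p = 0.1204, edgeR).

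With the knock-in lines in 1 fit and genotype and sex in the model, 4 of 7 genes rose at 10 against 2 months: Dcn (0.16 ± 0.05), Pdgfra (0.19 ± 0.07), Ednra (0.34 ± 0.06) and Gsn (0.32 ± 0.09), where 13.4% of all genes were called higher. This fit has 1 age term for all 6 lines, and the lines differed. Between 2 and 10 months the Q20 mean of Dcn went from 176 to 159 CPM. Those of Pdgfra (6.64 to 6.01 CPM) and Ednra (5.03 to 4.99 CPM) were lower too, while Gsn rose (24.2 to 25.8 CPM). Q175 means rose from 139 to 191 CPM (Dcn), 4.91 to 6.70 CPM (Pdgfra), 3.49 to 5.29 CPM (Ednra) and 16.4 to 38.0 CPM (Gsn). The 2-month knock-in livers picked the genes, so comparisons with them, here and at 6 against 2 months, are not independent of the choice. Low Q175 and high Q20 values at 2 months were favoured by it, and so were a Q175 rise and a Q20 fall with age. Steps that involve the knock-in libraries of 6 months change the library set with the age. At 6 against 2 months Lum (-0.35 ± 0.07) and Col4a5 (-0.26 ± 0.10) fell and Ednra (0.17 ± 0.06) and Gsn (0.35 ± 0.08) rose, where 25.4% of all genes were called lower and 27.7% higher. At 10 against 6 months Lum (0.38 ± 0.07), Dcn (0.28 ± 0.05), Pdgfra (0.19 ± 0.07) and Ednra (0.17 ± 0.06) rose, where 28.8% were called higher.

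Females had higher fitted levels of all 7 mRNAs than males at every age, and the difference passed for 7 of 7 genes at 2 months, 6 at 6 months and 5 at 10 months. The share of all genes called higher in females was 29.8%, 31.4% and 30% at these ages. Col4a5 had the largest difference at each age, 0.48 ± 0.10, 0.94 ± 0.11 and 1.05 ± 0.13 in order of age (adjusted p = 3.06e-05, 2.58e-10 and 1.37e-09, edgeR). At 10 months Col4a5 ran from 2.19 through 5.04 to 6.73 CPM in 28 females, against 0.671, 2.18 and 4.98 CPM in 27 males. The ranges overlapped, and the female mean was higher in 7 of 7 genotypes at each age. Dcn was higher in females by 0.26 ± 0.04, 0.33 ± 0.07 and 0.24 ± 0.06 at the 3 ages, and Lum by 0.36 ± 0.06, 0.26 ± 0.09 and 0.28 ± 0.08. The genes that did not pass were Gsn at 6 months (0.16 ± 0.12, adjusted p = 0.246), and Pdgfra (0.17 ± 0.08, adjusted p = 0.0632) and Ednra (0.14 ± 0.07, adjusted p = 0.0734, edgeR) at 10 months. With limma on log2(FPKM + 0.1) these 3 passed too, at 0.30 (adjusted p = 0.0252), 0.28 (adjusted p = 0.00175) and 0.26 (adjusted p = 0.00166) in the same order, while Gpc6 at 2 months missed the threshold in edgeR without the low-count filter (adjusted p = 0.0600). At 2 months 17 of 20 stellate cell markers and 13 of 13 Kupffer cell markers were higher in females, and the part of cell numbers was not tested.

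**Figure D4:**
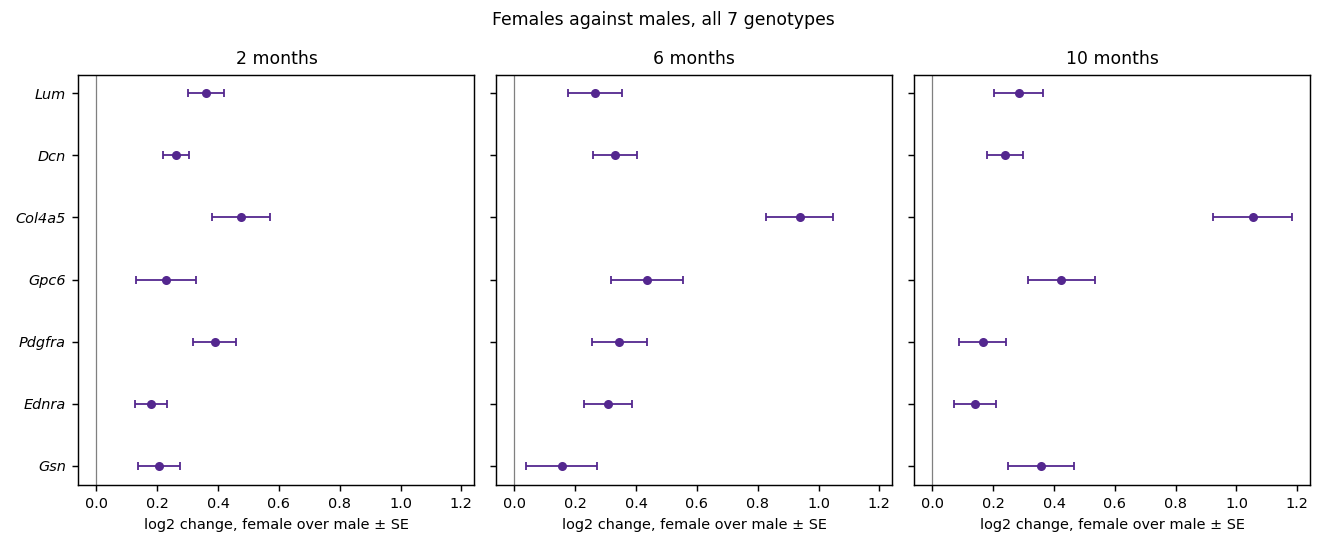
Log2 change of each gene in females against males (x axis), fitted over all 7 genotypes with genotype in the model, at 2, 6 and 10 months, with bars for the standard error. All points lie right of 0, and Col4a5 lies farthest right at each age, at 0.48, 0.94 and 1.05.

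The difference of the repeat slope between the sexes had no call at 6 or 10 months in edgeR or DESeq2, where 0.226% and 0.173% of all genes were called. At 10 months the female slope was the lower one for all 7 genes, by -0.22 per 100 CAG at the median, and 3 of 7 had an unadjusted p under 0.05: Col4a5 (-0.73 ± 0.28, adjusted p = 0.210), Pdgfra (-0.33 ± 0.14, adjusted p = 0.251) and Gpc6 (-0.51 ± 0.25, adjusted p = 0.316, edgeR). At 6 months none had, and the median was 0.07. At 2 months, where the slope picked the genes, the median slope was -0.25 in females alone and -0.51 in males alone, negative for all 7 genes in both.

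The 7 genes also varied together between animals of the same group. After the mean of each group and sex had been subtracted from log2 CPM, all 21 pairs correlated positively over all libraries, with Pearson r from 0.28 (Ednra and Col4a5) through a median of 0.54 to 0.75 (Dcn and Pdgfra). All 21 pairs passed for Pearson's r (largest adjusted p = 0.00034) and for Spearman's rho (largest adjusted p = 0.00137), by a two-sided permutation test with 100000 resamples and Benjamini-Hochberg adjustment over the 21 pairs. Spearman's rho ran from 0.24 through a median of 0.52 to 0.75. Leaving out the 2 libraries farthest from the median left r between 0.25 and 0.75. Within the ages taken singly the median r was 0.38, 0.55 and 0.59 in order of age, and it was 0.48 in the 24 WT libraries, with all 21 pairs positive in each of these sets. These values of single sets were not tested. At 2 months Col4a5 had r of 0.039 with Dcn, 0.11 with Lum and 0.14 with Ednra. With Pdgfra, Gpc6 and Gsn it had 0.26, 0.36 and 0.63 at that age. A member's median r with the 16228 other genes of the same libraries was -0.01, and 0.838% of those values were over 0.5. Dcn had r of 0.75 with Pdgfra, 0.72 with Ednra and 0.68 with Lum, while Col4a5 had r of 0.30 with Dcn and 0.56 with Gsn. These libraries share depth and tissue sampling, and the part of either in the correlation was not tested.

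**Figure D5:**
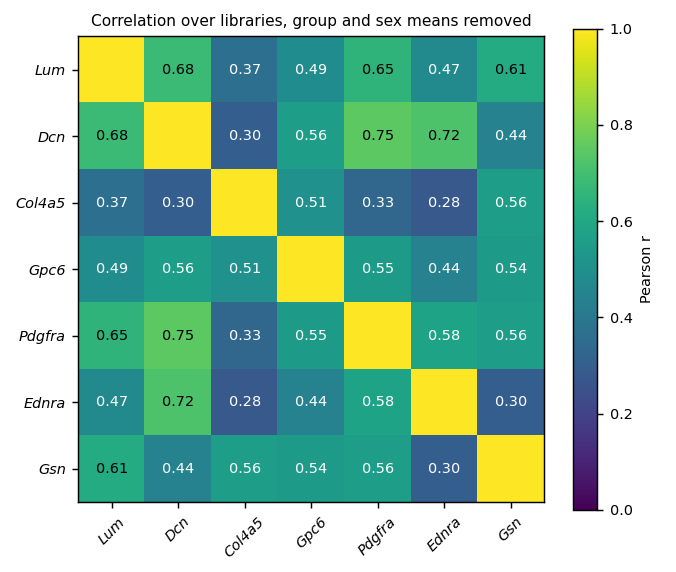
Pearson r (colour and number in each cell) between each pair of the 7 genes over all libraries, after the mean of each group and sex was subtracted from log2 CPM. All 21 pairs are positive, from 0.28 to 0.75. The darkest cells are those of Col4a5 with Ednra (0.28) and with Dcn (0.30), and of Ednra with Gsn (0.30).

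The genes whose pattern across libraries was most like that of the 7 were taken by the highest Pearson r of the same residuals among 16235 genes. For the mean of the 7 they were Lhfp (r = 0.85), Col6a1 (0.84), Pam (0.84), Bgn (0.83) and Timp2 (0.82). Col6a1 encodes a chain of type VI collagen, Bgn (biglycan) is a leucine-rich proteoglycan related to decorin, and Pam encodes an enzyme that amidates peptides. Dcn was most like Bmp5 (0.87), Pam (0.82), Abcc9 (0.81), Lhfp (0.81) and Ms4a4d (0.79). Pdgfra was most like Lhfp (0.77), Pam (0.76), Dcn (0.75), Prelp (0.75) and Abcc9 (0.74), and Ednra like Abcc9 (0.75), Bgn (0.73), Bmp5 (0.72), Dcn (0.72) and Gucy1b1 (0.71). Gucy1b1 encodes a subunit of the nitric oxide receptor guanylate cyclase, and Bmp5, a growth factor gene, was 1 of the 20 stellate cell markers listed here.

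Lum was most like Timp2 (0.73), Col6a1 (0.71), Col6a2 (0.71), Col1a2 (0.71) and Emp1 (0.70), which include chains of fibrillar and type VI collagens. Gpc6 was most like Igfbp3 (0.71), Col1a2 (0.71), Col16a1 (0.71), Col14a1 (0.70) and Col6a2 (0.70). Gsn was most like Timp2 (0.79), Ehd2 (0.77), Ogn (0.76), Cavin1 (0.76) and Svep1 (0.76), where Cavin1 and Ehd2 encode proteins of caveolae. Col4a5 had the weakest links, to Bicc1 (0.62), Mfge8 (0.61), Thsd4 (0.60), Dcdc2a (0.57) and Col6a1 (0.56). Col6a1 thus stood in the lists of Lum, Col4a5 and the mean, and Dcn, in those of Pdgfra and Ednra, was the member that stood in the list of another.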

How the data were processed

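Liver polyA RNA was measured in 21 groups of 7 or 8 libraries. The authors deposited expected counts per gene and FPKM values, per the file headers. CASAVA 1.8.2 is named in the submitters' processing notes, while the aligner, counter and genome build were not given in the sources used here. Of all expected counts 14.1% were not whole, so they were rounded to whole numbers. Counts split between similar genes stay uncertain. Of 39179 gene IDs, 37607 matched a GENCODE M21 symbol, and no 2 columns were identical. Total counts ran from 32025244 through a median of 38663519 to 57151736 per library.

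The main test was edgeR 4.0.16 in R 4.3.3 (quasi-likelihood, TMM, filterByExpr, Benjamini-Hochberg adjustment over all genes tested, threshold 0.05), with sex as a covariate and all 7 genotypes of an age in 1 fit. Slopes used the 6 knock-in lines, per 100 CAG. Standard errors are the log2 change divided by the root of F. CPM values use TMM library sizes, and log2 CPM for correlations a prior count of 2. The fit was tested on simulated data. Alternatives were DESeq2 1.42.0, its size factors within edgeR, limma 3.58.1 on log2(FPKM + 0.1) and log2(FPKM + 1), no low-count filter, the compared groups alone, each sex alone, the index set or the replicate number as a term, and left-out libraries. Correlations were tested with numpy 2.4.6 by 100000 resamples.

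The members, gene lists and tests were chosen with earlier results of these data known. Named genes are the 7 members, the 5 genes most correlated with each, and in each list the 4 genes of smallest p among those called, or the 2 of smallest p where no gene was called. Replicate numbers did not pair the libraries: of 492 same-numbered pairs of libraries, from 63 pairs of genotypes of 1 age, 97 had a correlation of their deviations over 0.1, with a median of 0.0053, and in 0 of the 63 did every pair exceed 0.1.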

Additional observations from a re-analysis of the deposited data

Results flagged for a closer look

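Of 147 groups of 1 gene, 1 genotype and 1 age, 14 held a library past Dixon's 95% limit for the gap to its neighbour. The limit flags about 1 in 20 groups of independent, normally distributed values. Here females and males were pooled on the CPM scale and the genes vary together, so that rate need not hold. In all 14 the library was the highest of its group. For Lum these were the Q175 female F4 of 10 months (20.8 CPM, next highest 12.5), the Q80 female F2 of 10 months (14.1 CPM, next 10.0), the Q92 female F4 of 10 months (13.6 CPM, next 10.1) and the WT female F3 of 2 months (15.1 CPM, next 11.2). For Dcn it was the Q140 female F4 of 10 months (275 CPM, next 195). For Gsn they were the Q175 female F4 of 10 months (83.3 CPM, next 47.5), the Q92 female F4 of 10 months (46.2 CPM, next 28.9) and the Q175 female F4 of 2 months (25.7 CPM, next 18.1).

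Gpc6 was high in the Q111 female F1 (4.2 CPM, next 2.49), the Q140 female F1 (4.74 CPM, next 2.86) and the Q80 female F2 (5.45 CPM, next 2.997) of 2 months. At 10 months it was high in the Q140 female F4 (5.03 CPM, next 3.05), the Q20 female F2 (5.17 CPM, next 2.90) and the Q175 male M3 (4.65 CPM, next 3.72).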

How the results depend on the processing

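Of the results with a count of calls, those of Q175 against WT at 6 and 10 months, of Q175 against Q20 at 10 months and of the slopes at 6 and 10 months were 0 under every alternative run, also with each replicate of the compared groups left out (0 to 0). For Q175 against WT at 2 months the count of 3 was 0 in females alone, 1 in males alone, 2 with limma at a pseudocount of 1 and with the compared groups alone, 4 in DESeq2, and 2 to 3 with 1 library left out. For Q175 against Q20 at 6 months the count of 2 was 0 in females alone, in males alone, without a low-count filter, with limma at a pseudocount of 0.1 and when the Q20 females F1, F3 and F4 were left out. It was 1 with limma at a pseudocount of 1, and 0 to 3 with 1 library left out. The other lines at 6 months, with 11 calls against WT and Q20, had 0 in males alone and 6 without those Q20 females. At 2 months these lines had no call against WT, and DESeq2 gave 4 against Q20, all in Q140, a contrast that took part in the choice of the genes. The 5 calls between lines of 1 index set at 6 months became 8 with limma at a pseudocount of 1. The cause of these differences was not tested. With 1 library left out, the 2-month median was -0.40 to -0.34 for the slope and -0.67 to -0.52 for Q175 against Q20. With the replicate block the counts were 3 for Q175 against WT at 2 months, 2 for Q175 against Q20 at 6 months, 11 for the other lines at 6 months and 0 for the slopes at 6 and 10 months. Among the 11, the block lost Ednra in Q20 against WT (adjusted p = 0.0542) and added Gpc6 in Q92 against Q20 (adjusted p = 0.0461, edgeR), and it changed no other call of a member. No called value changed sign, while 173 of 3768 values past the threshold in neither fit did. At 6 months the index set could not be fitted as a term for contrasts of genotypes. As a term in the 6-month slope it gave a median of -0.21 and no call.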
